A study of Mus musculus with 6 samples.

Results

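The miR-26 and miR-103 and miR-107 families are microRNAs (miRNAs) encoded inside a pair of gene families, miR-26 in the Ctdsp phosphatase genes and miR-103 and miR-107 in the Pank pantothenate kinase genes. The miRNAs described here were chosen by name: mmu-miR-26a-5p, mmu-miR-26b-5p, mmu-miR-26b-3p, mmu-miR-103-3p and mmu-miR-107-3p (the prefix for mouse is left out below). All 5 were listed, of 2009 names in all. They were measured in small RNA libraries from hearts of male mice, 3 sham hearts and 3 hearts after ischemia and reperfusion (I/R). Both groups were perfused outside the body on a Langendorff system, which feeds an isolated heart through the aorta. Sham hearts went on beating. I/R hearts were stopped with a cardioplegic solution ("Tomas cardioplegia" in the labels) for 30 min, with 1 h of reperfusion after it. The labels give neither strain, age nor genotype, and they call the 3 hearts of each group biological replicates. The series asked which miRNAs differ between the groups, as part of a search for networks of long noncoding RNAs, miRNAs and mRNAs.

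A miRNA guides a silencing complex to mRNAs that pair with its seed, bases 2 to 8 of the mature strand. Each hairpin precursor yields a 5p and a 3p strand, of which usually one is kept and the other is degraded. In cardiovascular work miR-26a is known as a regulator of SMAD1 in endothelial cells and of EZH2 in many cell types. miR-103 and miR-107 are known for effects on insulin sensitivity through caveolin-1, for repression of Dicer and, in heart muscle cells, for repression of FADD, a protein of cell death signalling. The CTDSP proteins are phosphatases that act on RNA polymerase II and the PANK enzymes start the synthesis of coenzyme A.

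The mature strands are shown first because family membership, and which names can be confused in counting, follow from them. Seeds are in capitals, and sequences are from RefSeq (GRCm38.p6), which held all 5 names.
miR-26a-5p: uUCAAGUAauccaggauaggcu
miR-26b-5p: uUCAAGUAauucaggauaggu
miR-26b-3p: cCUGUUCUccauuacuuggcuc
miR-103-3p: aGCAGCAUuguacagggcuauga
miR-107-3p: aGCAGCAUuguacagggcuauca
The strands miR-26a-5p (22 nt) and miR-26b-5p (21 nt) shared their seed and differed by C11U and C21U, with positions counted from the 5′ end, miR-26a first. The strands miR-103-3p and miR-107-3p, both 23 nt, were identical over the first 21 bases and differed by G22C alone, with miR-103 first. A read that ends before base 22 fits both names, with the rule for assigning such reads not given in the sources used here, so the split between these 2 names is uncertain. The strand miR-26b-3p has an unrelated seed.

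The strand miR-26a-5p is made from 2 loci, as is miR-103-3p.
Mir26a-1: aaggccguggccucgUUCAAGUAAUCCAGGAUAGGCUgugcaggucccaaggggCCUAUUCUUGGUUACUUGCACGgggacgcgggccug
Mir26a-2: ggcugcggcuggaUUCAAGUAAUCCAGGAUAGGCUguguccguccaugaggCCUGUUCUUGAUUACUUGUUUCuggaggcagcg
Mir26b: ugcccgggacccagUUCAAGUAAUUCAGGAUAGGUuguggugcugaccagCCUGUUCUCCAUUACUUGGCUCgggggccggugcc
These are the 3 miR-26 hairpins, shown because their 3p strands tell apart the loci that share a 5p strand; both mature arms of each are in capitals. The 5p strands of Mir26a-1 and Mir26a-2 are identical, so reads of miR-26a-5p cannot be assigned to either gene. In GRCm38, Mir26a-1 is intronic to Ctdspl (chromosome 9, 119031796 to 119031885) and Mir26b to Ctdsp1 (chromosome 1, 74394310 to 74394394), both on the plus strand. Mir26a-2 lies on the plus strand of chromosome 10 at 126995530 to 126995613 within Ctdsp2. It is intronic in 1 of the 3 annotated Ctdsp2 transcripts that span it, and in the exons of the other 2, in 1 of them within an annotated UTR of a coding transcript and in 1 of them within a noncoding transcript.

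The miR-103 and miR-107 hairpins are intronic as well, on the strand of their hosts. Mir103-1 is in Pank3 (chromosome 11, 35782396 to 35782481) and Mir103-2 in Pank2 (chromosome 2, 131288052 to 131288137), both on the plus strand. Mir107 is in Pank1 (chromosome 19, 34820687 to 34820773, minus strand). The host mRNAs were not analysed here.

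The libraries held 7874103 to 9197869 reads on listed names, and values are reads per 1000000 of these (RPM), with mean ± SD over n = 3 hearts per group. Some names had near equal means, as miR-24-3p (5058 RPM in sham hearts, 5517 RPM after I/R) and miR-3074-5p (5054 and 5505 RPM). miR-1b-5p stood at 190133 and 182563 RPM, beside 380232 and 365121 RPM for miR-1a-3p. Whether this total holds reads counted under more than a single name was not tested, and all RPM values and shares of reads depend on it. All 4 heart muscle miRNAs used as markers (miR-1a-3p, miR-133a-3p, miR-208a-3p, miR-499-5p) were present, summing to 385458 to 389856 RPM in sham hearts, against 357828 to 383230 RPM after I/R. Marker miRNAs of endothelium summed to 24893 to 27478 RPM in sham hearts, against 25829 to 31830 RPM after I/R, and those of smooth muscle to 35566 to 46739 and 41127 to 49773 RPM. The 2 fibroblast markers summed to 174 to 229 RPM in sham hearts, against 214 to 266 RPM after I/R. The 2 erythroid markers stood at 3.33 to 6.85 and 1.52 to 5.26 RPM, and the 4 leukocyte markers at 100.02 to 133 and 107.5 to 111 RPM. The liver marker miR-122-5p stood at 3.05 to 3.58 and 3.67 to 4.32 RPM and the 2 epithelial markers at 1.70 to 2.39 and 2.93 to 3.79 RPM. For heart muscle, liver and epithelium these summed ranges were separate. Among single tested miRNAs, the groups were separate for 15.2% of all. Most of the heart muscle sum was miR-1a-3p (means 380232 RPM in sham hearts, 365121 RPM after I/R), while miR-133a-3p, miR-208a-3p and miR-499-5p overlapped between groups. In epithelium, miR-200b-3p differed (means 1.68 and 3.01 RPM), while miR-141-3p was at 0.42 and 0.41 RPM with overlap. None of the tested markers passed the test below, and no defining marker was at 0 in all libraries. The part of these levels in the results was not tested. In bulk tissue, fewer cells of a type and less miRNA per cell cannot be told apart.

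The 5 miRNAs took 1.20% of the reads and spanned more than 3 orders of magnitude in level. The most abundant was miR-26a-5p, 15th by mean level among all names and 14th to 16th in every library. Its neighbours in that order were miR-148a-3p (9868 to 11874 RPM over the libraries) and miR-100-5p (9057 to 11793 RPM), and the ranges of all 3 overlapped. The others ranked 44th (miR-26b-5p), 67th (miR-103-3p), 219th (miR-107-3p) and 326th (miR-26b-3p). The range of miR-26b-5p over the libraries (980.01 to 1228 RPM) lay below that of miR-139-5p, the next above it (1271 to 1500 RPM), and overlapped that of miR-133a-3p, the next below. Rank 67 lay between miR-218-5p and miR-25-3p and rank 219 between miR-134-5p and miR-450b-5p, whose ranges over libraries overlapped those of miR-103-3p and miR-107-3p. The order within the 5 was the same in all 6 libraries, with no overlap between any 2 of them.

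**Figure D1:**
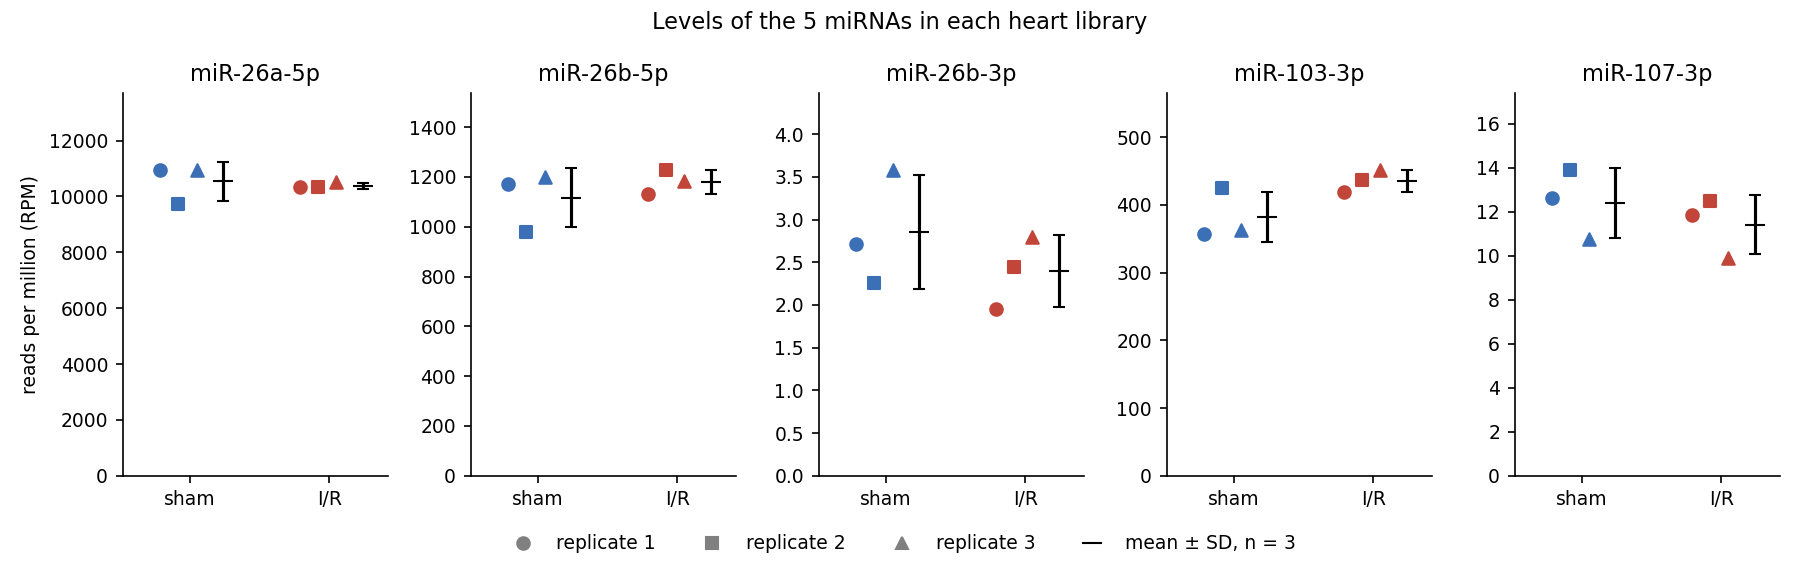
Levels in RPM (vertical axes from 0, a separate scale for each miRNA) of the 5 miRNAs in 3 sham (blue) and 3 I/R (red) libraries, with marker shape for the replicate number and a bar for mean ± SD. The groups overlap for every miRNA, and miR-26a-5p stays between 9735 and 10949 RPM.

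The dominant miR-26a-5p was nearly level across the I/R hearts. It stood at 10946, 9735 and 10949 RPM in sham replicates 1 to 3, and I/R replicates 1 to 3 were at 10322, 10332 and 10507 RPM. All I/R values lay inside the sham range, which was set on its low side by sham replicate 2. The means, sham first, were 10543 ± 700 and 10387 ± 104 RPM (log2 fold change -0.019, SE 0.07, 95% interval -0.18 to 0.14, limma adjusted p = 0.935). On the linear scale that interval runs from 0.883-fold to 1.10-fold. Other settings moved the estimate to between -0.14 and 0.0089. It was -0.12 with median-ratio scaling, -0.11 with quantile normalization and -0.090 with totals that leave out the 10 most abundant miRNAs. edgeR gave -0.14 and DESeq2 -0.12. With quantile normalization the limma unadjusted p was 0.034 and the adjusted p 0.74. The sign turned when sham replicate 1 or 3 was left out.

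Its paralog miR-26b-5p stood at a lower level and did not pass the test either. Sham replicates 1 to 3 were at 1170, 980.01 and 1199 RPM, and I/R replicates 1 to 3 at 1131, 1228 and 1182 RPM. Sham replicate 2 was again the lowest library, and the groups overlapped. Means were 1116 ± 119 and 1180 ± 48.7 RPM (log2 fold change 0.085, SE 0.10, interval -0.15 to 0.32, limma adjusted p = 0.798). The sign turned with median-ratio scaling, in edgeR and in DESeq2, and without sham replicate 2, where the log2 fold change was -0.0062.

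The 3p strand of the same hairpin was scarce. miR-26b-3p was at 2.72, 2.26 and 3.58 RPM in sham replicates 1 to 3, against 1.95, 2.45 and 2.79 RPM in I/R replicates 1 to 3, from 16 to 29 reads per library. The groups overlapped, with the highest value in sham replicate 3. Means were 2.85 ± 0.67 and 2.40 ± 0.42 RPM (log2 fold change -0.17, SE 0.21, interval -0.65 to 0.30, limma adjusted p = 0.798). Counting error alone at this depth is 21.3% of the level, and the SD between hearts was 23.5% of the mean in sham and 17.6% in I/R. The estimate stayed below 0 under all 19 alternatives that gave a value, from -0.043 without sham replicate 3 to -0.36 in edgeR, and was -0.077 without I/R replicate 1 and -0.29 without sham replicate 2.

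In the other family, miR-103-3p had the highest fold change of the 5. It was at 358, 425 and 363 RPM in sham replicates 1 to 3, against 418, 436 and 452 RPM in I/R replicates 1 to 3. Sham replicate 2 lay within the I/R values, while the other sham hearts lay below all of them. Means were 382 ± 37.5 and 436 ± 16.6 RPM (log2 fold change 0.19, SE 0.11, interval -0.051 to 0.44, limma adjusted p = 0.628). The estimate stayed above 0 under all 20 alternatives run, from 0.0076 with quantile normalization to 0.27 without sham replicate 2. Over these alternatives (limma, edgeR and DESeq2) the adjusted p was 0.465 to 0.989.

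The near-identical miR-107-3p did not share that sign. Values were 12.6, 13.9 and 10.7 RPM in sham replicates 1 to 3, against 11.8, 12.5 and 9.91 RPM in I/R replicates 1 to 3. The groups overlapped, and the heart with the least miR-107-3p, I/R replicate 3, had the most miR-103-3p. Means were 12.4 ± 1.59 and 11.4 ± 1.34 RPM (log2 fold change -0.11, SE 0.16, interval -0.48 to 0.25, limma adjusted p = 0.806). This estimate stayed below 0 under all 20 alternatives, from -0.27 to -0.022. With 78 to 123 reads per library, counting error was 9.98% of the level, close to the SD of 12.8% in sham and 11.7% in I/R.

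Of the 5, 0 passed at an adjusted p of 0.05 in limma, where the share over all 409 tested miRNAs was 0%. At an unadjusted p under 0.05 there were 0 of 5, against 7.33% of all, and edgeR and DESeq2 called 0 of the 5. For 0 of 5 the groups were separate, against 15.2% of all tested miRNAs. Fold changes of all miRNAs were not centred on 0: their median was 0.10 (log2). Relative to that median the log2 fold changes were -0.12 for miR-26a-5p, -0.016 for miR-26b-5p, -0.28 for miR-26b-3p, 0.092 for miR-103-3p and -0.21 for miR-107-3p. Median-ratio scaling, which brought the median of all miRNAs to 0.005, gave -0.12, -0.018, -0.25, 0.090 and -0.21 in the same order.

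**Figure D2:**
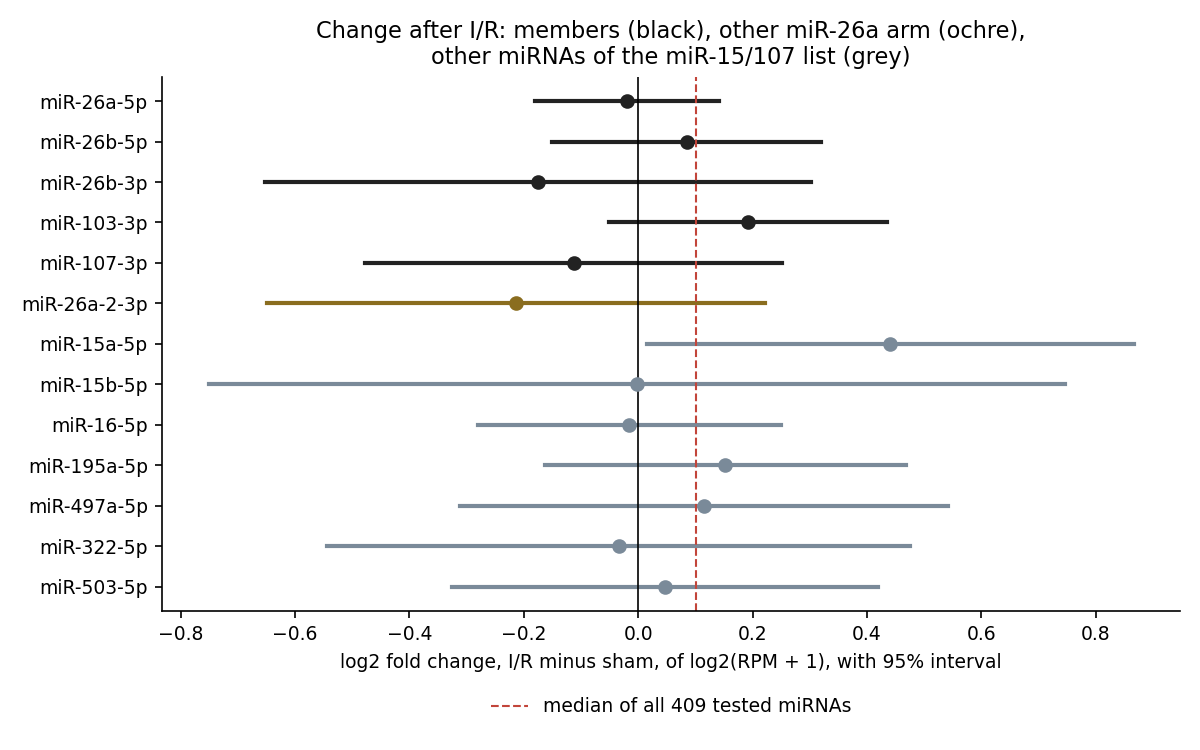
Log2 fold changes of log2(RPM + 1), I/R minus sham, with 95% limma intervals, for the 5 miRNAs (black), the other kept miR-26a arm (ochre) and the other 7 miRNAs of the miR-15 and miR-107 list (grey); the dashed line is the median of all 409 tested. The intervals of all 5 include 0, and that of miR-26a-5p is the narrowest drawn.

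The replicate numbers were taken to pair the libraries, from these same data alone, as the labels state no shared day or batch. With the number as a block, limma called 4 of the 409 miRNAs instead of 0, and 0 of the 5. Within the numbers, miR-103-3p was higher in the I/R heart in 3 of 3 pairs, by 0.23, 0.037 and 0.31 on the log2 scale. miR-107-3p was lower in 3 of 3, with differences of -0.085, -0.15 and -0.11. The miR-26 names had 1 positive pair of 3 each, in every case that of replicate 2. These directions rest on 3 pairs and did not pass the blocked test.

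Families were compared by the sums of their listed names. Seeds were searched among the 1679 of 2009 names with a RefSeq sequence, which held 33.8% of the reads. The remaining names could not be searched. Among those with a sequence, miR-26a-5p and miR-26b-5p were the only names with the seed UCAAGUA. Together they stood at 11660 ± 818 RPM in sham hearts, against 11567 ± 119 RPM after I/R, a difference of -92.6 RPM (exact permutation p = 1, two-sided, n = 3 each). The difference was positive without sham replicate 1 or 3, at 135 and 152 RPM, and -565 RPM without sham replicate 2. Median-ratio scaling gave -929 RPM, and scaling to totals that leave out the 10 most abundant miRNAs -667 RPM. miR-103-3p and miR-107-3p, the names with the seed GCAGCAU among those with a sequence, held 394 ± 38.8 and 447 ± 15.7 RPM (difference 52.4 RPM, exact permutation p = 0.2, adjusted p over 4 tests 0.267). Under the same pair of scalings that difference was 22.8 and 31.9 RPM. For 3 against 3 hearts the smallest exact p is 0.1.

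Reads of miR-26a-5p made up most of the miR-26 sum in every heart. The share of miR-26a-5p in the miR-26 sum was 90.34%, 90.85% and 90.13% in sham and 90.13%, 89.38% and 89.89% in I/R replicates 1 to 3. The groups touched: sham replicate 3 (95% Wilson interval 89.94% to 90.31%) and I/R replicate 1 (89.94% to 90.32%) were equal to the second decimal. Means were 90.4 ± 0.37% and 89.8 ± 0.38%, a difference of -0.643 percentage points (exact permutation p = 0.1, the smallest possible, adjusted p over 4 tests 0.2). In reads, there were 9.47 ± 0.41 of miR-26a-5p for each of miR-26b-5p in sham and 8.81 ± 0.36 in I/R.

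For the other family, the share of miR-103-3p in its sum with miR-107-3p was 96.6%, 96.8% and 97.1% in sham and 97.2%, 97.2% and 97.9% in I/R replicates 1 to 3. The highest sham heart (Wilson interval 96.5% to 97.7%) and the lowest I/R heart (96.6% to 97.7%) differed by less than their counting error. Means were 96.9 ± 0.27% and 97.4 ± 0.36%, a difference of 0.589 percentage points (exact permutation p = 0.1, the smallest possible, adjusted p over 4 tests 0.2). Reads of miR-103-3p outnumbered those of miR-107-3p 30.9 ± 2.74 to 1 in sham and 38.6 ± 6.02 to 1 in I/R hearts. Without I/R replicate 3, which had the highest ratio (45.6), the difference in share was 0.383 percentage points. The names differ at base 22 only, and the part of short reads in this share was not tested. Both shares kept their direction in every alternative run, but neither can pass the threshold with 3 against 3 hearts.

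**Figure D3:**
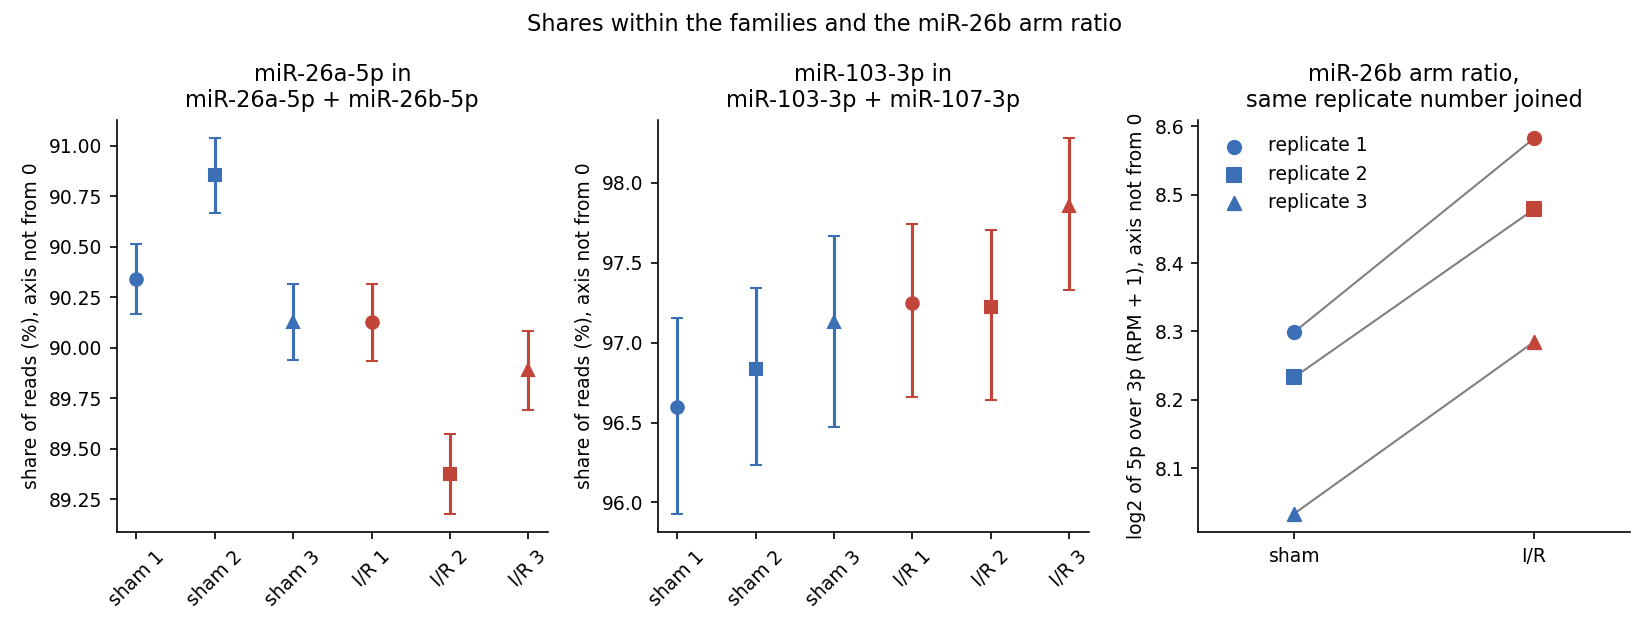
Left and middle, share of reads (%) of miR-26a-5p and of miR-103-3p within their families, by library, with 95% Wilson intervals (counting error only); right, log2 of 5p over 3p strand of miR-26b, with hearts of the same replicate number joined. Sham replicate 3 and I/R replicate 1 both sit at 90.13% in the left panel, and all 3 lines in the right panel go up; none of the axes starts at 0.

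The strands of the hairpins were kept very unequally. For miR-26b the 5p strand outnumbered the 3p strand 400 ± 56.1 to 1 in sham and 501 ± 78.0 to 1 in I/R hearts. Among the 94 precursors with both arms kept under matching names, this was the 5th highest ratio of 5p to 3p. miR-26a was not among them, because its 3p strands are named by locus. The log2 ratio was 8.30, 8.23 and 8.03 in sham and 8.58, 8.48 and 8.28 in I/R replicates 1 to 3, so that only I/R replicate 3 fell within the sham range. The difference was 0.26 (SE 0.14, interval -0.065 to 0.58, limma adjusted p = 0.641), where 0% of the 94 precursors passed and 6.38% had an unadjusted p under 0.05. With the replicate block the limma adjusted p was 0.273, and the ratio was higher in the I/R heart of all 3 pairs. The ratio moves with the 16 to 29 reads of the 3p strand, and with 10 times the pseudocount the difference was 0.14.

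The remaining strands of these hairpins show which were detected at all. The 3p strand of Mir26a-2 held 401 reads over all libraries and that of Mir26a-1 held 2, a share of 0.496% for Mir26a-1 (95% Wilson interval 0.136% to 1.79%). Nearly all miR-26a 3p reads thus carried the name of the Ctdsp2 locus, while the 5p reads of the 2 loci cannot be told apart. miR-26a-2-3p was at 8.26, 7.23 and 10.4 RPM in sham replicates 1 to 3, against 8.54, 5.87 and 7.49 RPM in I/R replicates 1 to 3. The groups overlapped, with means of 8.62 ± 1.599 and 7.30 ± 1.35 RPM (log2 fold change -0.21, SE 0.19, limma adjusted p = 0.738). Reads of miR-26a-5p, from both loci, outnumbered it 1315 to 1.

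The strand miR-26a-2-3p also shares the seed CUGUUCU of miR-26b-3p. The other names with that seed among those with a RefSeq sequence, miR-6932-3p and miR-7039-3p, had 5 reads and 1 read over all libraries and were not tested. In the miR-103 and miR-107 hairpins the 5p strands were almost absent. miR-103-1-5p had 1 read in I/R replicate 2 and miR-103-2-5p had 0 in every library, against 20550 reads of miR-103-3p (a share of 0.00487%, Wilson interval 0.000859% to 0.0276%). miR-107-5p had 1 read, in sham replicate 3, against 603 reads of miR-107-3p.

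Sham replicate 2 held the highest or the lowest sham value for most tested miRNAs, and also for the tested miRNAs of these families. The 4 tested miR-26 strands (miR-26a-5p, miR-26b-5p, miR-26b-3p and miR-26a-2-3p) had their lowest sham value there, which held for 30.8% of all tested miRNAs, and miR-103-3p and miR-107-3p had their highest, which held for 45.2%. For each of the 5 the SD was larger in sham than in I/R, as for 49.1% of all tested miRNAs. The SD of miR-26a-5p was 6.64% of its mean in sham and 1.00% in I/R, with counting error of 0.337%. For miR-103-3p these were 9.82%, 3.81% and 1.71%. The number of miR-26a-5p reads per miR-103-3p read was 30.6, 22.9 and 30.1 in sham and 24.7, 23.7 and 23.3 in I/R replicates 1 to 3, so that sham replicate 2 had the lowest ratio of all 6 hearts.

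**Figure D4:**
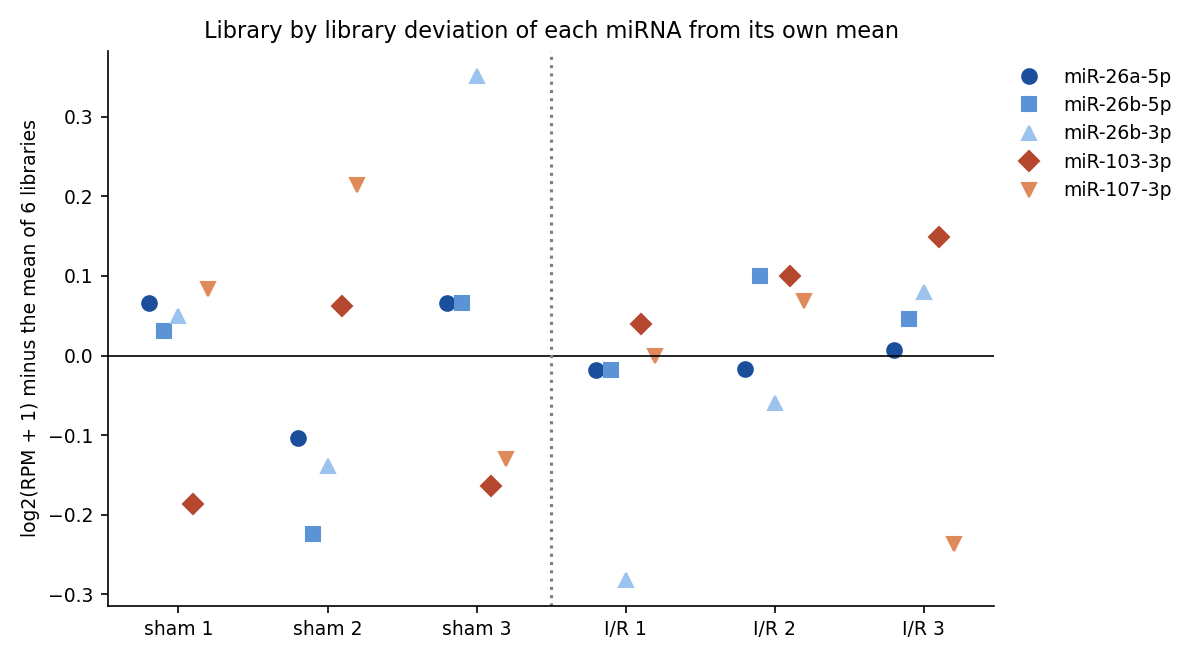
Deviation of each of the 5 miRNAs from its own mean over 6 libraries, in log2(RPM + 1), by library, with sham left and I/R right of the dotted line. In sham replicate 2 the 3 miR-26 names lie below 0 and miR-103-3p and miR-107-3p above it, by between -0.22 and 0.21.

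Other miRNAs had similar patterns over the 6 libraries. Likeness was measured as the root mean square difference of log2(RPM + 1) levels after centring each miRNA on its own mean, among 228 miRNAs of at least 10 RPM. The nearest to miR-26a-5p was miR-30f at 0.021, followed by miR-99a-5p at 0.041 and miR-30e-3p at 0.051. miR-30f was at 187, 174 and 193 RPM in sham replicates 1 to 3, against 180.3, 179.8 and 181 RPM in I/R replicates 1 to 3. The median distance from miR-26a-5p was 0.18, and that between miR-26a-5p and miR-26b-5p was 0.072.

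The nearest to miR-26b-5p were miR-99a-5p, miR-30c-5p and let-7g-5p, at 0.056, 0.060 and 0.065. For miR-103-3p they were miR-542-3p (0.038), miR-24-3p (0.046) and miR-322-3p (0.048). Of these, miR-542-3p and miR-322-3p belong to a cluster on the X chromosome. The means of miR-24-3p were near equal to those of miR-3074-5p, and whether reads were counted under both names was not tested. miR-542-3p was at 35.3, 45.1 and 37.0 RPM in sham replicates 1 to 3, against 42.6, 43.8 and 48.3 RPM in I/R replicates 1 to 3. The distance between miR-103-3p and miR-107-3p was 0.20, above the median distance of 0.17 from miR-103-3p to the other miRNAs. The nearest to miR-107-3p were let-7a-5p, let-7f-5p and miR-490-3p, at 0.097, 0.099 and 0.10, and to miR-26b-3p miR-206-3p (0.11), miR-30e-3p (0.14) and miR-187-3p (0.15). Counting error was 9.98% of the level for miR-107-3p and 21.3% for miR-26b-3p. Its part in the distances from these 2 names was not tested.

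miR-103 and miR-107 belong to a wider group that includes miR-15 and miR-16 and shares the letters AGCAGC near the 5′ end. The strands below show where these letters, in capitals, begin.
miR-103-3p: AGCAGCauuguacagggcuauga
miR-16-5p: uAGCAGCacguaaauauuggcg
miR-195a-5p: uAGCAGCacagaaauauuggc
miR-322-5p: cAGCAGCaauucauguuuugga
miR-503-5p: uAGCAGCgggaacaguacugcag
The letters begin at base 1 in miR-103-3p and miR-107-3p and at base 2 in the other 7 members of the list, so their seeds are offset by 1 base. Within the first 8 bases, 13 of 1679 mature strands held AGCAGC (0.774%), among them all 9 of the list. The list was chosen with earlier results of these data known.

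In these hearts miR-103-3p and miR-107-3p held 57.6% of the reads of the 9. The next were miR-16-5p, a regulator of cell cycle genes, at 188 ± 20.5 RPM in sham hearts, against 186 ± 6.20 RPM after I/R, and miR-195a-5p, known for cell cycle exit of newborn heart muscle, at 77.3 ± 12.2 and 85.4 ± 3.84 RPM. Their log2 fold changes were -0.016 (SE 0.12) and 0.15 (SE 0.14), with limma adjusted p = 0.970 and 0.742. The mean levels over all 6 libraries of the other 5 members of the list ran from 3.19 RPM (miR-15a-5p) to 17.9 RPM (miR-322-5p).

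Among the 9, 0 passed in limma and 1 had an unadjusted p under 0.05, against 0% and 7.33% of all 409 tested miRNAs. The 1 was miR-15a-5p, at 2.94, 2.37 and 2.35 RPM in sham replicates 1 to 3, against 3.42, 4.52 and 3.56 RPM in I/R replicates 1 to 3. Its groups did not overlap, which held for 15.2% of all tested miRNAs, and its log2 fold change was 0.44 (SE 0.19, limma adjusted p = 0.598) from 19 to 37 reads per library. The median over the list was 0.047 against 0.10 over all 409. In the list 5 were positive and 4 negative, against 287 and 122 of all. Median-ratio scaling turned the list median to -0.043 and quantile normalization to -0.050. With a single library left out, the list median was -0.052 without sham replicate 3 and 0.27 without sham replicate 2. It was 0.015, 0.093 and 0.10 without I/R replicate 2, 1 and 3. In sham replicate 2, 7 of the 9 had their highest sham value, which held for 45.2% of all tested miRNAs. The 9 together stood at 701 ± 82.5 RPM in sham hearts, against 760 ± 23.9 RPM after I/R.

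**Figure D5:**
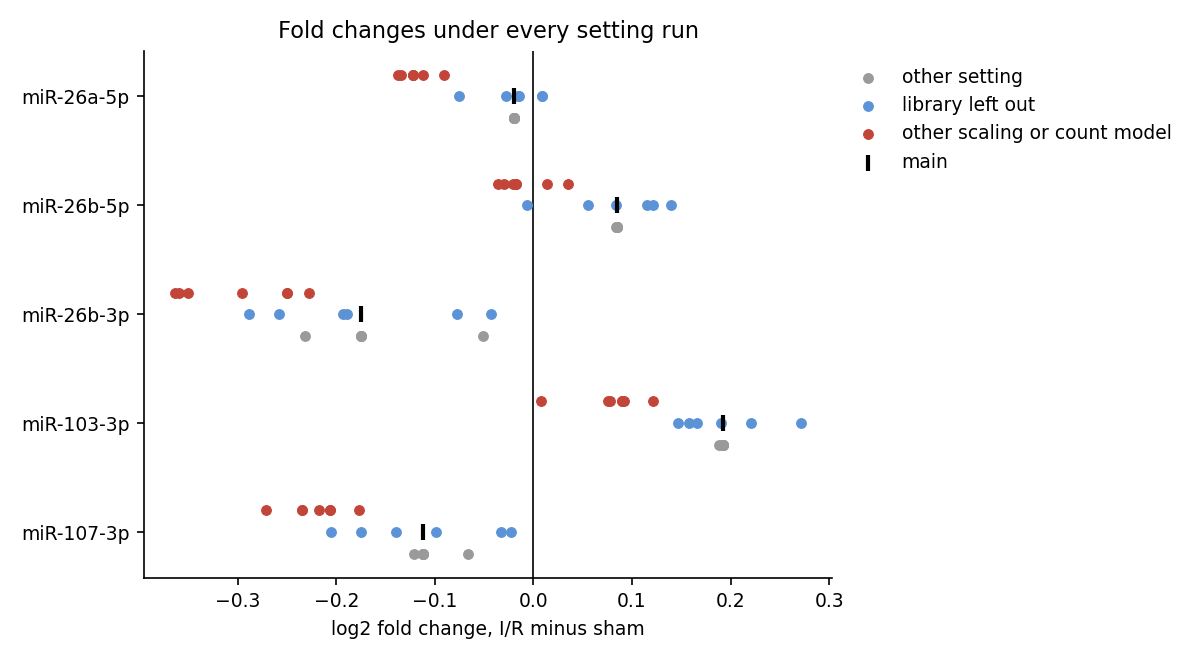
Log2 fold changes of the 5 miRNAs, I/R minus sham, under each setting run: the reported value (black bar), 1 library left out (blue), another scaling or count model (red) and other settings (grey). miR-103-3p stays above 0 and miR-107-3p and miR-26b-3p below 0, while points of miR-26a-5p and miR-26b-5p lie on both sides.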

How the data were processed

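Small RNA of 6 libraries was analysed from the deposited table, which the authors' file name calls FPKM. The deposited signal columns sum to the same total, and every value is a whole multiple of its column's smallest value above 0, as reads per 1000000 divided by a constant 23.0 nt would be. Whole reads were recovered for 100% of values (tolerance 0.01 reads). The tools named in the submitters' processing notes are fastp 0.23.0 and bcl2fastq 2.19.1.403, with the build mm10; the aligner, annotation, strand setting and treatment of multiply matching reads were not given in the sources used here. Per the labels' protocols, libraries were made with poly(A) mRNA kits, although titles say miRNA-seq.

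Differences were tested with limma 3.58.1 (R 4.3.3), with trend, on log2(RPM + 1), in the 409 names that averaged 1 RPM or more and were above 0 in 3 or more libraries; all 5 members passed. p-values are two-sided with Benjamini-Hochberg adjustment over the 409 (threshold 0.05). Fold changes on this scale understate those of scarce names. Arm ratios were tested likewise over 94 precursors, and 4 sums and shares by exact permutation (scipy 1.17.1). Alternatives included edgeR 4.0.16 and DESeq2 1.42.0 on recovered counts. The deposited values carry no molecule identifiers, so Wilson intervals cover counting error only.

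Named miRNAs were the members, other arms of their hairpins, names sharing a seed, a list of the miR-15 and miR-107 group, abundance neighbours and the 3 nearest patterns per member. The members and lists were chosen with earlier results of these data known. Same-numbered libraries deviated together (correlations 0.14, 0.28 and 0.165, others -0.195 to 0.069), so numbers were taken to pair them, from the data alone; the labels state no shared day or batch. Libraries of the same group differed by more than sampling noise (chi-square 34.7 to 138 per degree of freedom). Hairpins were placed with GENCODE M21.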

Additional observations from a re-analysis of the deposited data

How the results depend on the processing

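None of the 5 miRNAs passed in any of 99 alternative fits, with adjusted p of 0.465 to 0.996, and 91 kept their direction. The log2 fold change of miR-26a-5p ranged from -0.076 to 0.0089 with a library left out. That of miR-26b-5p, 0.085 in the report, was -0.018 with median-ratio scaling, also with the replicate block, -0.036 in edgeR (-0.030 with the block, added after seeing the data) and -0.020 in DESeq2, and ranged from -0.0062 to 0.14 with a library left out. The miR-26 sum differed by -565 to 152 RPM with a library left out. The count of called miRNAs, 0 in the report, was 1 without a filter, 4 with the replicate block in limma (also with median-ratio scaling, and in edgeR) and 2 in DESeq2, and 0 to 1 with a library left out (1 without sham replicate 2); edgeR without the block called 0, with 26 at an unadjusted p under 0.05, where limma had 30. None of these calls was a member. In the blocked sign-flip permutation of the sums and shares, 0.25 is the smallest possible p, so it cannot pass. With the filter at 10 RPM, miR-26b-3p and the miR-26b arm ratio had no value. Counting error was 21.3% of the level for miR-26b-3p and 9.98% for miR-107-3p, against 0.337% for miR-26a-5p; its part in the missing calls was not tested, and every member had 3 hearts per group.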
